A study of Schizosaccharomyces pombe with 6 samples.

Results

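The genes described here encode the proteasome and the enzymes that attach ubiquitin to proteins or remove it, in the fission yeast Schizosaccharomyces pombe. A gene was a member where its annotated symbol began with rpn, rpt, pre, pup, mts, ubc, ubp or ubi followed by a number, or was pts1 or pam1, and where a probe set of the array carried that gene alone. This gave 57 of the 2896 S. pombe genes tested. They were 9 subunits of the proteasome's core particle, 18 subunits of its regulatory cap, 3 ubiquitin genes, 11 ubiquitin-conjugating enzymes and 16 deubiquitinating enzymes. The rule used symbols only and no measured value, but it was set with earlier results of these data known. One member listed as ubp13 on the platform is called pan2 in RefSeq, the catalytic subunit of a poly(A) nuclease, and it was kept among the 16 because the rule takes it in. The subunit genes rpn501 and rpn502 share a probe set and were not members, and neither was uep1, whose older name is ubi2.

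Ubiquitin is a small protein that is activated by an E1 enzyme, passed to a conjugating (E2) enzyme and attached to a target protein with the help of a ligase. Chains of ubiquitin mark many proteins for the proteasome, in which a cap binds and unfolds the protein with a ring of ATPases and a barrel-shaped core cuts it into peptides. Deubiquitinating enzymes recycle ubiquitin and can release proteins from this fate. In S. cerevisiae the genes of proteasome subunits are known to be expressed together, and in fission yeast the pathway is best known for its part in the cell cycle, protein quality control and sexual differentiation.

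The study concerned sexual flocculation, in which cells of the h+ and h- mating types stick together in clumps. An h+ strain, YHL6381, and an h- strain, SPQ-01, were grown apart in YEPD medium at 30 °C to an OD600 of 5.0 and then combined 1:1, and the mixture stayed in new YEPD or YEPME for 90 min. There were 3 arrays per medium, called biological replicates in the labels, so 6 Affymetrix arrays in all, hybridised with biotin-labelled cRNA from total RNA. By this description both groups held the same mixture of strains, and the medium of the last step was the factor compared. For the genotypes beyond mating type and for the meaning of YEPME the labels give nothing. The submitters' short codes for the groups are tied to the media one way in the sample labels and the other way in the design text, and the strain label of the YEPME samples reads diploid where others describe haploid cells. Groups here follow the medium named in each sample's label. If the codes of the design text were followed instead, every sign of a difference between media would turn.

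Values are on the deposited log2 scale, where a difference of 1 is a 2-fold change, and differences are YEPME minus YEPD. A level was compared only within a probe set. The replicate 1 arrays of both media stood apart from the other 4. Their values carried up to 10 significant digits against 6, and their background, the 95th percentile of 2600 Saccharomyces cerevisiae probe sets, was 5.60 and 5.59 against 4.78 to 4.81. Over the 2896 genes, arrays correlated at 0.975 within replicate 1, at 0.994 or more among replicates 2 and 3, and at 0.884 to 0.92 across. The labels do not say whether 1 normalization covered all 6. The differences are therefore given over all 6 arrays, with the split of replicate 1 from replicates 2 and 3 as a block, and in each part alone. All 57 members lay above background on every array.

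Over all 6 arrays, no proteasome subunit, ubiquitin gene, conjugating enzyme or deubiquitinating enzyme passed the test for a difference between YEPME and YEPD. The fit without a block called 0 of 57 members, and 0 of all genes (percent called 0, limma, adjusted p under 0.05). As it called no gene at all, it cannot show that the members were unchanged. At an unadjusted p under 0.05 it called 0 members, against 1.1% of all genes. Its 95% intervals for members ran from -1.2 to 1.28. With the block, 0 members passed where 2.07% of all genes did (0.76% higher and 1.31% lower), and 5 members had an unadjusted p under 0.05, beside 16.5% of all genes. With that block the differences of the 27 proteasome subunits ran from -0.19 to 0.13, and no 95% interval of theirs reached beyond -0.57 or 0.27. The intervals ran from -0.13 to 0.2 for the ubiquitin genes, -0.54 to 0.49 for the conjugating enzymes and -0.6 to 0.43 for the deubiquitinating enzymes. This fit takes 1 difference for all pairs, so its intervals do not bound the difference within replicate 1 or within replicates 2 and 3. For the subunit gene rpn1302 these were -0.62 and 0.03. The 3 YEPD and the 3 YEPME arrays did not overlap for 2 members, rpn1301 and ubc1, beside 5.7% of all genes. The cultures were mixtures measured in bulk, so fewer cells of a type and less RNA per cell cannot be told apart.

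The replicate 1 pair and the other pairs gave different pictures of the proteasome. In replicate 1, 25 of the 27 subunits were lower in YEPME, with a median difference of -0.22, beside 55.6% of all genes (44.4% were higher) and a median of -0.042. In replicates 2 and 3, 17 of the 27 subunits were higher in YEPME in both pairs, with a median of 0.072, beside 38.1% of all genes and a median of 0.003. The beta-type subunit pam1 was alone in being lower in both, beside 36.2% of all genes. There were 15 subunits that were lower in replicate 1 and higher in both other pairs, against 21.4% of all genes. The median level of the 27 subunits was 12.36, 11.61 and 11.59 in YEPD replicates 1, 2 and 3, and 12.12, 11.76 and 11.69 in YEPME. The YEPD array of replicate 1 was thus the highest of the 6, the YEPME array of replicate 1 came next, and the other 4 lay close together with YEPME slightly above YEPD.

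**Figure D1:**
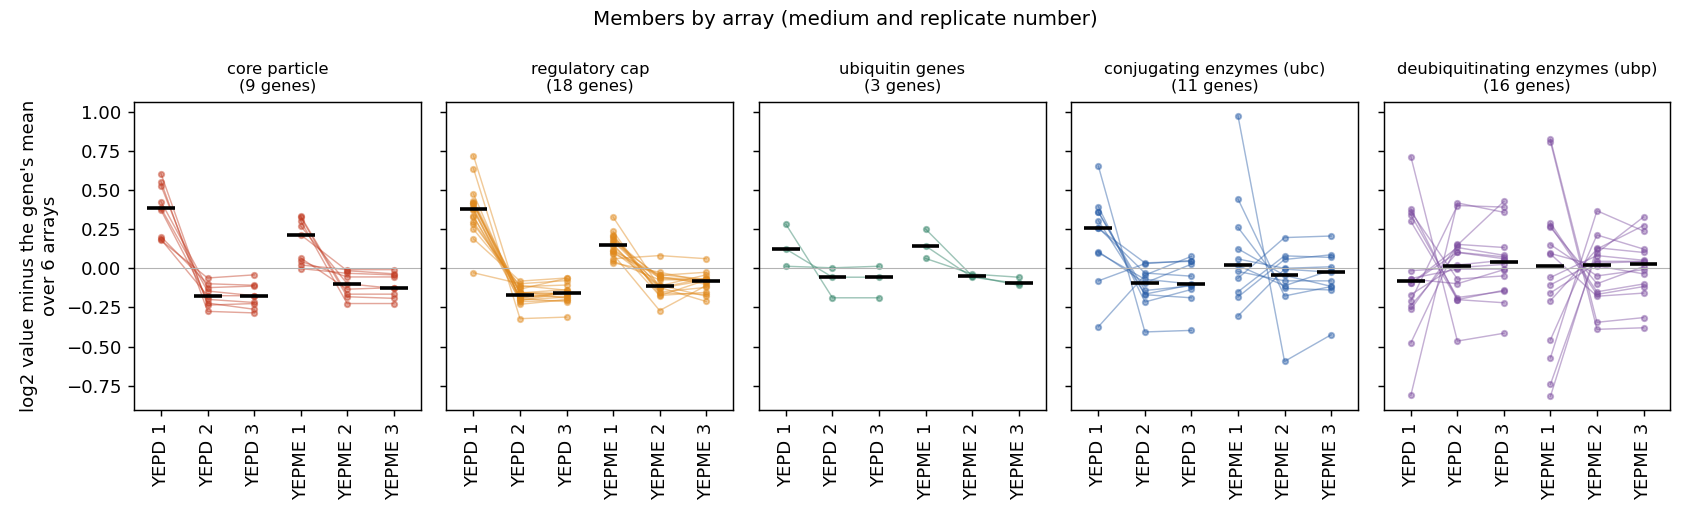
Each point is a member on 1 array, as its log2 value minus that gene's mean over the 6 arrays, in 5 panels by class. Lines join the arrays of a gene within a medium, replicate numbers have no order, and bars are class medians. In the panels of the core particle and the cap, nearly all genes sit highest on YEPD replicate 1 and next on YEPME replicate 1, while the deubiquitinating enzymes spread both ways.

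The test of that departure is the interaction of medium with the split, the difference in replicate 1 minus the difference in replicates 2 and 3. It was negative for all 27 subunits, from -0.65 to -0.07, and passed for 23 of them. Of all genes, 27.4% passed with a negative sign and 46.4% in either direction. The replicate 1 pair has 1 array per medium, which the fit assumes to vary like the others. Without YEPD replicate 2 the count of subunits fell to 6, and without YEPD replicate 3 it was also 6. The 4 subunits that did not pass were rpn8 (adjusted p = 0.0927), rpt5 (0.408), rpn1301 (0.347) and pup3 (0.114).

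**Figure D2:**
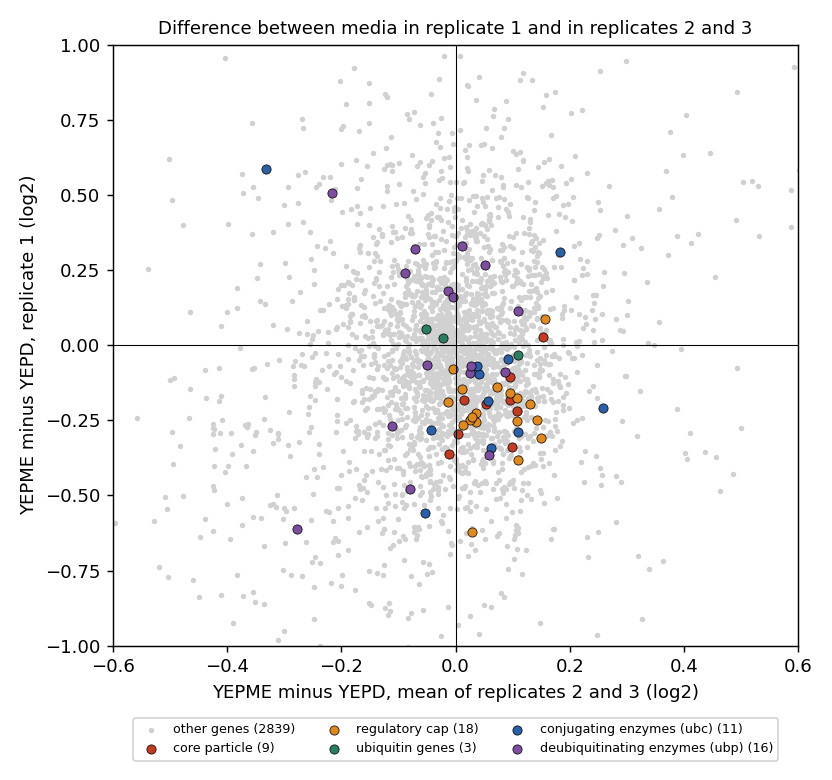
Each point is a gene, with its difference between media in replicates 2 and 3 on the horizontal axis and in replicate 1 on the vertical axis, both in log2 units. Members are coloured by class, and 109 other genes lie outside the axes. Most proteasome subunits fall below and to the right of the crossing lines, between -0.62 and 0.09 on the vertical axis and -0.01 and 0.16 on the horizontal axis, within the cloud of the other genes.

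In the core particle, 8 of 9 subunits were lower in YEPME in replicate 1 and 6 were higher in both other pairs. The outer rings of the core are built of alpha subunits and the inner rings of beta subunits, of which 3 types carry the cutting sites. For pts1 (SPAC4A8.13C), the beta subunit with the chymotrypsin-like site, the 3 YEPD arrays gave 12.47, 11.94 and 11.91 and the 3 YEPME arrays 12.13, 12.03 and 12.03, in the order of their replicates. YEPD replicate 1 was the highest array, and within replicates 2 and 3 both YEPME arrays lay just above both YEPD arrays. The difference was -0.34 in replicate 1 and 0.10 ± 0.03 (SE moderated over all genes, 2 arrays per medium) in replicates 2 and 3. The interaction was -0.44 ± 0.05 (limma, adjusted p = 0.00483).

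For pup1 (SPAC23D3.07), the beta subunit that carries the trypsin-like site, YEPD gave 12.59, 11.75 and 11.76 and YEPME 12.29, 11.76 and 11.76. The 4 arrays of replicates 2 and 3 were within 0.01 of each other, and only the replicate 1 arrays differed, with an interaction of -0.30 (adjusted p = 0.0113). For pre3 (SPBC4C3.10C), the beta subunit of the caspase-like site, YEPD gave 12.59, 12.35 and 12.37 and YEPME 12.41, 12.38 and 12.37. Here a single array, YEPD replicate 1, stood above the other 5. The interaction of pre3 was -0.20 (adjusted p = 0.0371). All 3 catalytic subunits were thus lower in YEPME in replicate 1, and within replicates 2 and 3 none of them passed the test.

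The beta-type subunit gene pam1 (SPAC22F8.06) gave 12.00, 11.45 and 11.46 in YEPD and 11.64, 11.44 and 11.45 in YEPME. Its interaction was -0.35 ± 0.05 (adjusted p = 0.00788), and the other 4 arrays spanned 11.44 to 11.46. The alpha subunit gene pre10 (SPCC1795.04C) gave 11.91, 11.08 and 11.07 in YEPD and 11.69, 11.19 and 11.19 in YEPME. Within replicates 2 and 3 the YEPME arrays were higher by 0.11 (adjusted p = 0.0764), which did not pass. The interaction was -0.33 (adjusted p = 0.00913). The other alpha subunits pre6, pre8 and pup2 had the same pair of signs, with differences of -0.19, -0.18 and -0.11 in replicate 1 and of 0.05, 0.10 and 0.10 in replicates 2 and 3, and each passed the interaction test.

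The exception in the core was pup3 (SPCC63.12C), a beta subunit. YEPD gave 11.83, 11.47 and 11.47 and YEPME 11.86, 11.63 and 11.61. It was higher in YEPME in all 3 pairs, by 0.03 in replicate 1 and by 0.15 ± 0.03 in replicates 2 and 3, which passed there (limma, adjusted p = 0.0362). The groups of 3 overlapped because of the level of YEPD replicate 1. Without any 1 of the 4 arrays of replicates 2 and 3, pup3 no longer passed.

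In the regulatory cap, 17 of 18 subunits were lower in YEPME in replicate 1 and 11 were higher in both other pairs. The cap has a base, with the 6 ATPases Rpt1 to Rpt6 and the large scaffold proteins Rpn1 and Rpn2, and a lid. Within the ATPase ring rpt6 (SPBC23G7.12C) had the largest interaction. It gave 12.50, 11.90 and 11.93 in YEPD and 12.12, 12.06 and 12.00 in YEPME. YEPD replicate 1 was again highest, and in replicates 2 and 3 the YEPME arrays lay above the YEPD arrays by 0.11. The interaction was -0.49 ± 0.06 (adjusted p = 0.00512).

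For rpt3 (SPCC576.10C) YEPD gave 11.76, 11.22 and 11.27 and YEPME 11.52, 11.38 and 11.40, with an interaction of -0.39 ± 0.06 (adjusted p = 0.00794). The 2 media did not overlap in replicates 2 and 3, but the difference of 0.14 did not pass there (adjusted p = 0.0557), although it did with the replicate block (0.0388). The other ATPase genes had differences in replicate 1 of -0.22 (rpt1), -0.24 (rpt2), -0.25 (rpt4) and -0.08 (rpt5). In replicates 2 and 3 they differed by 0.04, 0.03, 0.11 and 0.00, and all but rpt5 passed the interaction test. The Rpn1 gene mts4 (SPBP19A11.03C) gave 12.70, 12.34 and 12.31 in YEPD and 12.56, 12.41 and 12.38 in YEPME, the same order with smaller gaps. Its interaction was -0.21 (adjusted p = 0.0352), and that of rpn2 was -0.29 (adjusted p = 0.0341).

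Among the lid genes, rpn12 (SPBC16G5.01) gave 12.54, 11.58 and 11.59 in YEPD and 12.23, 11.78 and 11.69 in YEPME. It was lower in YEPME by 0.31 in replicate 1 and higher by 0.20 and 0.10 in the other pairs, which passed with the replicate block (adjusted p = 0.0435) and not without it (0.0748). It had an interaction of -0.46 ± 0.07 (adjusted p = 0.00867). The gene rpn11, for the lid subunit that removes ubiquitin from proteins as they enter, differed by -0.20 in replicate 1 and by 0.13 in replicates 2 and 3 (adjusted p = 0.0522, not passing). The lid genes rpn3, rpn6, rpn7 and rpn9 differed by -0.18, -0.27, -0.25 and -0.19 in replicate 1 and all passed the interaction test. The ubiquitin receptor gene rpn10 differed by -0.16 in replicate 1 and by 0.10 in replicates 2 and 3, with an interaction of -0.26 (adjusted p = 0.0264).

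The 2 genes for the ubiquitin receptor Rpn13 differed from each other in pattern. For rpn1301 (SPBC342.04) YEPD gave 10.83, 10.76 and 10.78 and YEPME 10.92, 10.94 and 10.92. All 3 YEPME arrays were above all 3 YEPD arrays, and the replicate 1 arrays did not stand apart. It was the one cap subunit higher in YEPME in replicate 1, by 0.09, and the difference in replicates 2 and 3 was 0.16 ± 0.03 (limma, adjusted p = 0.0369). Over all 6 arrays with the block the difference was 0.13 ± 0.04 (adjusted p = 0.235), which did not pass. The call within replicates 2 and 3 was lost without any 1 of those 4 arrays.

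For rpn1302 (SPCC16A11.16C) YEPD gave 10.85, 9.90 and 9.93 and YEPME 10.22, 9.86 and 10.02. It had the largest interaction of the 27 subunits, -0.65 ± 0.11 (adjusted p = 0.00982), and in replicates 2 and 3 the media overlapped with a difference of 0.03 ± 0.06. The interaction of rpn1301 was -0.07 ± 0.05 (adjusted p = 0.347). The difference between the 2 genes was not itself tested.

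Within replicates 2 and 3 alone, 6 members passed, 3 higher and 3 lower in YEPME, beside 6.91% and 8.7% of all genes (15.6% in both directions). Those that rose were rpn1301, pup3 and the conjugating enzyme gene ubc14. Those that fell were ubc12, ubp1 and ubp11. Of the 27 subunits 2 passed, and 4 in the fit that keeps the pairs together by a replicate block, which added rpn12 and rpt3. That block also added ubc16, which makes 9 members, and kept the 6. With it the 4 arrays leave 1 residual degree of freedom. The added calls thus rest largely on the variance shared over all genes, with an SE of 0.04 for rpn12, rpt3 and ubc16. Each of the 6 lost its call without YEPD replicate 2 and without YEPD replicate 3 (adjusted p from 0.0982 to 0.251). The 2 media did not overlap in these replicates for 37 of 57 members, beside 63.1% of all genes, so pairs of arrays that do not overlap were common. Of the 27 subunits, 16 were apart with YEPME higher, beside 32.5% of all genes, and 1 with YEPME lower, beside 30.6%. An unadjusted p under 0.05 was reached by 22 members, beside 34.3% of all genes. The direction was shared by all 3 pairs for 11 members, beside 36.9% of all genes.

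**Figure D3:**
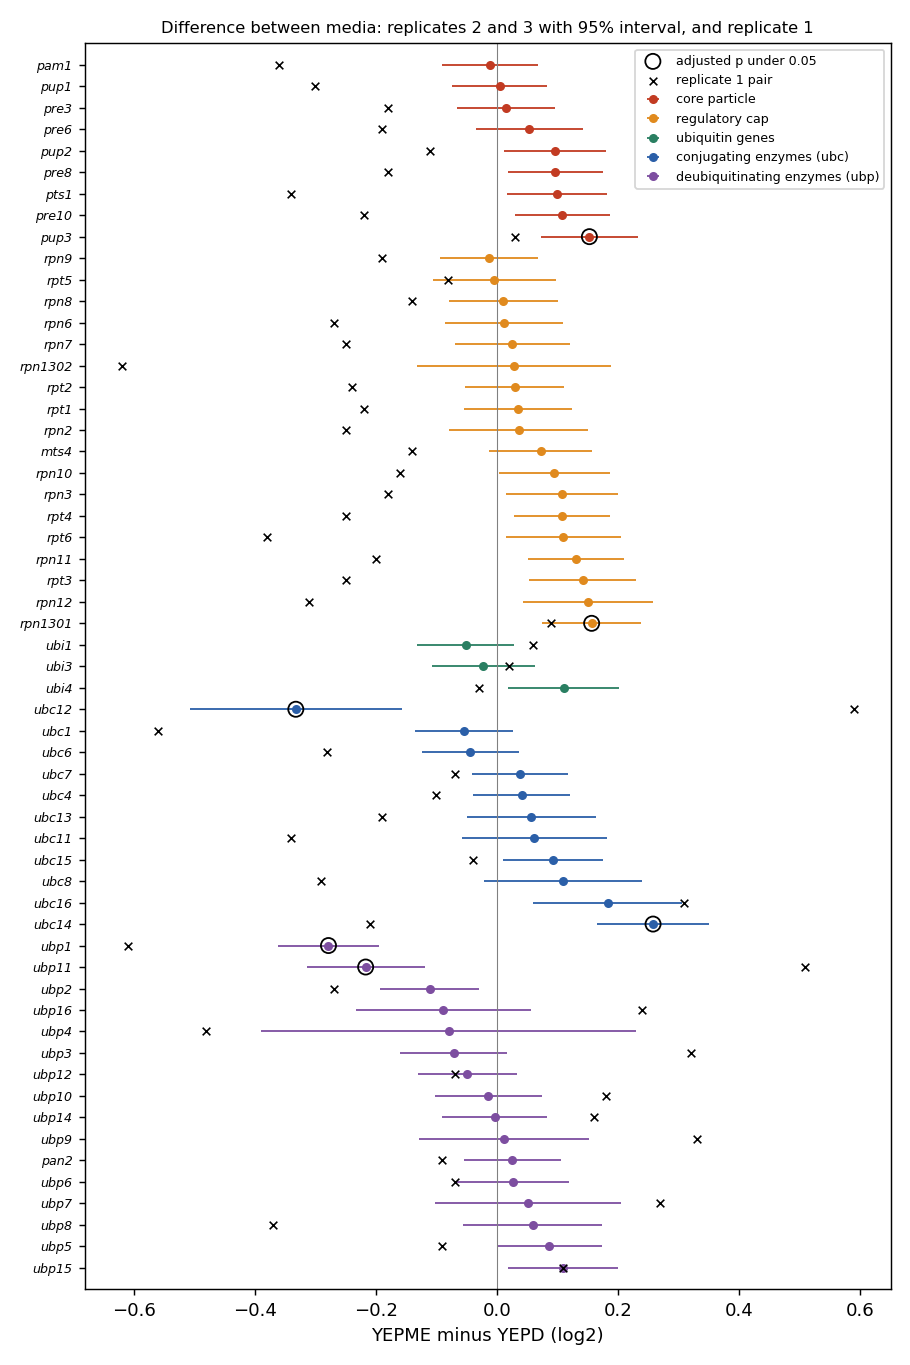
Each row is a member, with its difference between media in replicates 2 and 3 as a point with a 95% interval and its difference in the replicate 1 pair as a cross, in log2 units. Circles mark the 6 members that passed within replicates 2 and 3. The crosses of the subunits lie left of their points, and those of the deubiquitinating enzymes lie on either side.

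The 3 ubiquitin genes differed little between media. They are fusions of ubiquitin to a ribosomal protein (ubi1 and ubi3) and the polyubiquitin gene ubi4, which is known as a stress-induced source of ubiquitin. Their ubiquitin parts are nearly alike in sequence. The probe sets used for ubi3 and ubi4 are of the kinds that may read several transcripts, so their signals may be shared. For ubi4 (SPBC337.08C) YEPD gave 13.81, 13.34 and 13.34 and YEPME 13.78, 13.48 and 13.42. The replicate 1 arrays of both media were high, and in the other pairs YEPME was above YEPD by 0.11 (adjusted p = 0.101), which did not pass. For ubi1 (SPAC11G7.04) YEPD gave 13.37, 13.36 and 13.37 and YEPME 13.42, 13.32 and 13.30, which span the 6 arrays from 13.30 to 13.42. For ubi3 (SPAC6G10.11C) YEPD gave 14.32, 14.14 and 14.14 and YEPME 14.34, 14.14 and 14.10. Another probe set of ubi3, with a lower mean and not of those kinds, gave 13.68, 13.56 and 13.50 in YEPD and 13.79, 13.51 and 13.52 in YEPME. No ubiquitin gene passed the interaction test (adjusted p from 0.121 to 0.553).

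Of the 11 conjugating enzymes, 9 were lower in YEPME in replicate 1 (median -0.186), beside 55.6% of all genes. In both other pairs 7 were higher (median over replicates 2 and 3 0.057), beside 38.1% of all genes. The interaction passed for 6 with a negative sign and for 1 with a positive sign, beside 27.4% and 19% of all genes. That one was ubc12 (SPCC777.10C), the conjugating enzyme of the ubiquitin-like protein Nedd8, which modifies cullins. YEPD gave 6.61, 6.0 and 6.08 and YEPME 7.19, 5.62 and 5.79. YEPME was highest of all in replicate 1 and lowest in the other pairs. The difference was 0.59 in replicate 1 and -0.33 ± 0.07 in replicates 2 and 3 (adjusted p = 0.0373), with an interaction of 0.92 ± 0.12 (adjusted p = 0.00506). These levels were the closest to background among the members, with backgrounds of 5.60 and 5.59 on the replicate 1 arrays. After quantile normalization over the genes, the difference in replicates 2 and 3 was of similar size, -0.35, but no longer passed (adjusted p = 0.105).

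The conjugating enzyme gene ubc14 (SPAC1250.03) gave 11.41, 10.35 and 10.36 in YEPD and 11.20, 10.58 and 10.64 in YEPME. It was lower by 0.21 in replicate 1 and rose by 0.26 ± 0.04 in replicates 2 and 3 (adjusted p = 0.0141), with an interaction of -0.47 (adjusted p = 0.00561). Its order of arrays was that of the proteasome subunits with wider gaps. For ubc1 (SPBC2D10.20) YEPD gave 10.97, 10.75 and 10.76 and YEPME 10.41, 10.71 and 10.69. All 3 YEPME arrays were below all 3 YEPD arrays, with most of the gap in replicate 1. Its interaction was -0.50 ± 0.05 (adjusted p = 0.00343), and within replicates 2 and 3 the difference of -0.05 did not pass.

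The enzyme of ubc4 (SPBC119.02) is known for passing ubiquitin to short-lived and abnormal proteins. YEPD gave 14.00, 13.47 and 13.45 and YEPME 13.90, 13.51 and 13.50, so the replicate 1 arrays were high in both media. Its interaction was -0.14 (adjusted p = 0.0938), which did not pass. For ubc16 (SPBC1198.09) YEPD gave 9.16, 9.49 and 9.61 and YEPME 9.47, 9.73 and 9.74, higher in YEPME in all 3 pairs. With the block its difference was 0.23 ± 0.06 (adjusted p = 0.163), and within replicates 2 and 3 it was 0.18 ± 0.05 (adjusted p = 0.0658, and 0.0223 with the replicate block). The enzymes of ubc6 and ubc7 serve protein degradation at the endoplasmic reticulum, and the genes differed by -0.28 and -0.07 in replicate 1. The gene ubc11, for a conjugating enzyme of the anaphase-promoting complex, differed by -0.34 there and passed the interaction test with -0.41 (adjusted p = 0.0158).

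The 16 deubiquitinating enzymes had no common direction. In replicate 1, 8 were lower in YEPME and 8 higher, with a median of 0.023, beside 55.6% and 44.4% of all genes. In the other pairs 5 were higher in both and 8 lower in both, beside 38.1% and 36.2%. The interaction was negative for 2 and positive for 5 of those that passed, where 27.4% of all genes passed with a negative and 19% with a positive sign. The most marked was ubp11 (SPBC19C2.04C), with 11.08, 10.58 and 10.64 in YEPD and 11.59, 10.39 and 10.40 in YEPME. YEPME replicate 1 was the highest array and the other YEPME arrays were the lowest. The interaction was 0.72 ± 0.07 (adjusted p = 0.00232), and within replicates 2 and 3 ubp11 fell by 0.22 ± 0.04 on the log2 scale (adjusted p = 0.0255).

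The gene ubp1 (SPCC16A11.12C) was lower in YEPME in all 3 pairs. YEPD gave 9.10, 9.71 and 9.70 and YEPME 8.49, 9.44 and 9.41. Within replicates 2 and 3 it fell by 0.28 ± 0.03 on the log2 scale (adjusted p = 0.00874), the smallest adjusted p of any member there. With the block its difference was -0.39 ± 0.08 (adjusted p = 0.112). The difference in replicate 1 was -0.61, and the interaction was -0.33 (adjusted p = 0.00994), so the direction was shared but the size was not. The gene ubp2 (SPAC328.06) gave 10.78, 10.35 and 10.37 in YEPD and 10.51, 10.24 and 10.26 in YEPME, also lower in all 3 pairs, with a blocked difference of -0.16 ± 0.05 (adjusted p = 0.233).

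For ubp8 (SPAC13A11.04C), the enzyme of the SAGA complex that acts on histone H2B in S. cerevisiae, YEPD gave 9.28, 9.51 and 9.46 and YEPME 8.92, 9.59 and 9.50. YEPME replicate 1 was the lowest array, and the interaction was -0.42 (adjusted p = 0.0124). For ubp3 (SPBP8B7.21) YEPD gave 11.54, 11.73 and 11.76 and YEPME 11.86, 11.66 and 11.70. YEPME replicate 1 was its highest array and YEPD replicate 1 its lowest, with an interaction of 0.39 (adjusted p = 0.00789). For ubp10 (SPBC577.07) YEPD gave 8.50, 8.84 and 8.80 and YEPME 8.68, 8.82 and 8.79, with an interaction of 0.20 (adjusted p = 0.0478). The gene ubp6, whose product sits on the proteasome in S. cerevisiae, and ubp14, whose product takes free ubiquitin chains apart, did not pass, with interactions of -0.10 and 0.16.

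The level itself separated replicate 1 from replicates 2 and 3, and did so in one direction for the proteasome. With the medium in the fit, the difference of replicate 1 minus replicates 2 and 3 was positive for 27 of 27 subunits, from 0.03 to 0.72 with a median of 0.375, and 24 passed as higher with none lower. Of all genes 71% passed, 35% as higher and 36% as lower, with a median of -0.002. The middle 50% of all genes ran from -0.446 to 0.369, so the subunits lay in the upper part of a wide distribution. Both replicate 1 arrays were above all other 4 arrays for 26 of 27 subunits, beside 38.5% of all genes, and below them for 0, beside 38.3%. The exception was rpn1301, whose level differed by 0.03 ± 0.05 (adjusted p = 0.628), and pre3 and pre8 (0.14 and 0.16) also did not pass. The largest were rpn12 with 0.72 ± 0.11 (adjusted p = 0.00326), pup1 with 0.68 ± 0.08 (0.00114) and pre10 with 0.67 ± 0.08 (0.00149). All 27 remained positive after centring the arrays on their median and after quantile normalization, where the median was 0.448 and 0.296. Over all genes the median was 0.071 and -0.014 there, and 1580 and 1415 of the 2896 were positive. As deposited, 1444 of all genes were positive.

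**Figure D4:**
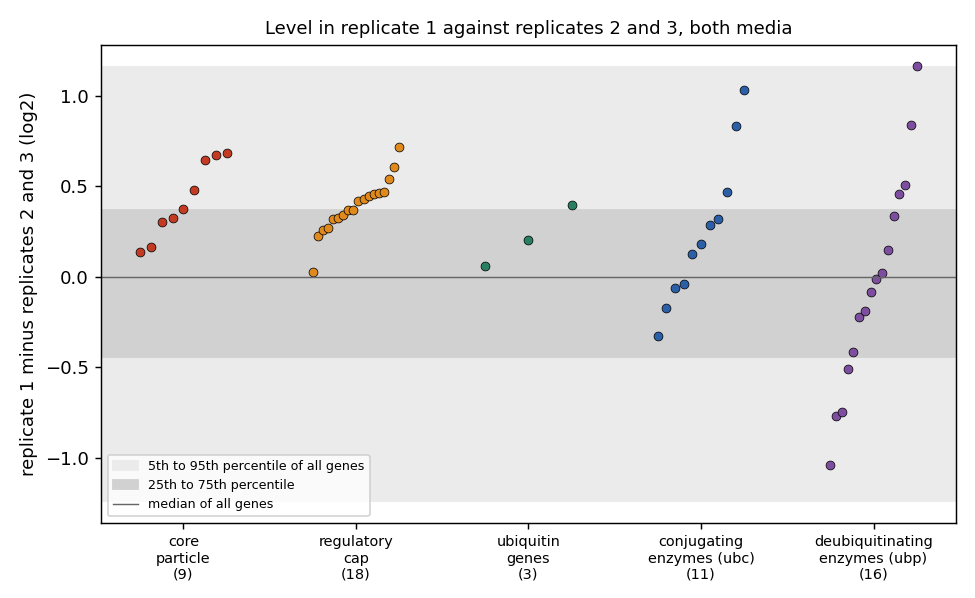
Each point is a member's level in replicate 1 minus replicates 2 and 3, over both media, in log2 units and sorted within its class. The dark and light bands hold the middle 50% and 90% of all genes. All points of the core particle and the cap lie above 0 and none above the light band, whereas the deubiquitinating enzymes run from -1.04 to 1.16.

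The deubiquitinating enzymes went both ways by this measure, with 5 passing as higher and 7 as lower, near the 35% and 36% of all genes. The widest were ubp15 (SPBC713.02C), a relative of human USP7, and ubp16 (SPCC1682.12C). For ubp15 YEPD gave 11.79, 10.61 and 10.66 and YEPME 11.90, 10.73 and 10.76, so replicate 1 was higher by 1.16 ± 0.04 (adjusted p = 6.05e-05). The YEPME minus YEPD difference of ubp15 was alike in the 3 pairs, 0.11, 0.12 and 0.10. For ubp16 YEPD gave 10.19, 11.42 and 11.36 and YEPME 10.43, 11.37 and 11.24, so replicate 1 was lower by 1.04, with a coefficient of -1.04 ± 0.09 (adjusted p = 0.00048). Together with ubc12, with 1.03 ± 0.21, these were the 3 members past a 2-fold difference in level, beside 15.2% of all genes.

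Of the conjugating enzymes, 4 passed as higher in replicate 1 and 2 as lower, beside 35% and 36% of all genes. The higher ones included ubc14 with 0.83 ± 0.11 (adjusted p = 0.00198) and ubc4 with 0.47 ± 0.05, and ubc16 was lower with -0.33 ± 0.06. Of the ubiquitin genes ubi4 was higher with 0.40 ± 0.06 (adjusted p = 0.00208) and ubi3 with 0.20 ± 0.04 (adjusted p = 0.0113), and ubi1 differed by 0.06 (adjusted p = 0.31). After quantile normalization only ubi4 stayed above 0, at 0.18 (adjusted p = 0.0363), while ubi3 turned to -0.07 (0.189) and ubi1 to -0.23 (0.00648), which passed as lower. No common direction in level holds for the ubiquitin genes.

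Other genes of the pathway, 117 from lists of E1 enzymes, ligases, binding factors and the like, gave 0 calls without a block and 0 with the block. Within replicates 2 and 3, 3 of them were higher and 6 lower in YEPME, beside 6.91% and 8.7% of all genes. The higher ones were sst2 with 0.36 (adjusted p = 0.0089) and uch1 with 0.25 (0.0161), which encode deubiquitinating enzymes, and srw1, an activator of the anaphase-promoting complex, with 0.18 (0.0369). Among the lower ones were nse1 with -0.30 (adjusted p = 0.021), a subunit of the Smc5-Smc6 complex with a ligase domain, the F-box genes pof14 with -0.29 (0.0243) and pof4 with -0.28 (0.0454), and rhp23 with -0.21 (0.0252), a shuttle that carries ubiquitinated proteins to the proteasome. The other lower ones were pop1, an F-box protein gene, with -0.15 (0.0375) and nep2, which encodes a protease for Nedd8, with -0.20 (0.0454). In replicate 1, 73 of the 117 were lower in YEPME, with a median of -0.092, beside 55.6% of all genes, and 38 were higher in both other pairs, beside 38.1%.

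The interaction passed for 29 of the 117 as negative and 17 as positive, beside 27.4% and 19% of all genes. The 16 genes of the anaphase-promoting complex had 6 negative and 0 positive, the 35 cullin ligase genes 7 and 7, and the 22 HECT and RING ligase genes 3 and 5. By level, 44 of the 117 were higher and 40 lower in replicate 1, near the 35% and 36% of all genes. The 16 binding factors of the Cdc48 and shuttle list had a median of 0.48, with 10 passing as higher and 1 as lower. The ligases of the HECT and RING list had a median of -0.272, with 8 higher and 12 lower.

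The M cell markers stood well apart on 1 array, YEPD replicate 1, while YEPME replicate 1 lay near the other arrays. The summed level of 8 M cell markers (mfm1 to mfm3, mam1 to mam4 and sxa2) was 13.82, 11.99 and 11.96 in YEPD and 12.35, 12.20 and 12.19 in YEPME. The array with the highest proteasome level, YEPD replicate 1, was thus also the one with the highest M cell markers. For 5 P cell markers (map1 to map4 and sxa1) it was 12.63, 12.48 and 12.40 in YEPD and 12.68, 12.59 and 12.66 in YEPME, where replicate 1 did not stand apart. All 8 and all 5 markers listed were measured, and 0 of them fell below background on any array. The part of the mating types, of the background and of the processing in the results above was not tested.

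In the genome the members are scattered, with 19 on chromosome I, 25 on chromosome II and 13 on chromosome III. The closest pair was rpn3 and ubc4 on chromosome II, with 0 protein-coding genes between them in the RefSeq order. Their differences were -0.18 and -0.10 in replicate 1 and 0.11 and 0.04 in replicates 2 and 3, and both levels were higher in replicate 1, by 0.44 and 0.47. On chromosome III, rpn8 and ubp16 had 1 such gene between them and went opposite ways in level, with 0.32 and -1.04. The gene ubp1 lay 3 genes from rpn1302, and their levels also differed in sign, with -0.77 and 0.61.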

How the data were processed

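The deposited values are log2 signals of probe sets on 6 Affymetrix arrays, which the authors made with RMA and Partek, per the submitters' processing notes. For neither tool is a version given in the sources used here, and nothing says if 1 run of RMA covered all arrays. RMA corrects background, equalises distributions and summarises probes, which shrinks small differences near background. The values were tested as deposited. Of 10924 probe sets, 2914 carried 1 S. pombe gene and stood for 2896 genes. Of several probe sets the one with the highest mean stood for the gene. RefSeq (ASM294v3) gave current symbols and gene order.

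Differences were fitted across all genes with limma 3.58.1 (lmFit and eBayes, two-sided, Benjamini-Hochberg) in R 4.3.3, with an adjusted p under 0.05 as the threshold. The fits were medium alone, medium with the split of replicate 1 from replicates 2 and 3 as a block, medium within replicates 2 and 3, and the interaction. Scripts were tested on simulated data. The p-values measure the spread between these arrays, with each gene's variance drawn towards that of all genes by eBayes. The 3 arrays per medium limit the precision. For the interaction, and for the fit within replicates 2 and 3, the spread came from replicates 2 and 3 alone, 2 arrays per medium. The SE is moderated in the same way. For pup1, with 11.75, 11.76, 11.76 and 11.76 in replicates 2 and 3, it was 0.03.

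The replicate number was taken to pair the arrays. Arrays that share a number deviated alike from the mean of their medium (correlations over genes of 0.853, 0.835 and 0.836). Replicates 2 and 3 of unlike number also correlated, at 0.816. These values therefore set replicate 1 apart but hardly tell replicate 2 from replicate 3. The counts by pair and the calls with the replicate block rest on the numbers as labelled.

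Members and lists were chosen with earlier results of these data known. Named members were those past the threshold over 6 arrays, in each class the 3 with the largest difference within replicates 2 and 3, the 2 largest by interaction and by level, and those of highest and lowest level. Alternatives were centring, quantile normalization, a filter on dim genes, trend and robust eBayes, a threshold of 0.01, the mean of probe sets, the replicate block and leaving out each array. Lists of pathway genes were matched by symbol, 5 of the 117 through an older one. Of these lists, ssm4 and fbh1 may not be the genes meant.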

Additional observations from a re-analysis of the deposited data

Results flagged for a closer look

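The difference between media departed between replicate 1 and replicates 2 and 3 for 23 of 27 proteasome subunits (limma interaction test, adjusted p under 0.05). It did so for 7 of 11 conjugating enzymes and 7 of 16 deubiquitinating enzymes, beside 46.4% of all genes. The share of the deubiquitinating enzymes, 43.8%, was thus no higher than that of all genes. The values below are the difference in replicate 1 minus that in replicates 2 and 3, on the log2 scale. Among cap genes it was -0.65 for rpn1302, -0.49 for rpt6, -0.46 for rpn12, -0.39 for rpt3 and -0.21 for mts4. Among core genes it was -0.44 for pts1, -0.35 for pam1, -0.33 for pre10, -0.3 for pup1 and -0.2 for pre3. Among conjugating enzymes it was -0.5 for ubc1, -0.47 for ubc14 and 0.92 for ubc12. Among deubiquitinating enzymes it was -0.42 for ubp8, -0.33 for ubp1, 0.2 for ubp10, 0.33 for ubp16, 0.39 for ubp3 and 0.72 for ubp11. The cause was not tested.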

How the results depend on the processing

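With no block, 0 genes and 0 members passed under every alternative run. With the split as a block, 60 genes passed, but 0 at an adjusted p under 0.01, 0 with the replicate number as a block in its place, and 0 to 452 without 1 array (members 0 to 6). Within replicates 2 and 3, 452 genes passed, 142 at 0.01, 753 with trend and robust eBayes, 695 with the replicate block and 19 to 483 without 1 array. Of the members 6 passed, 1 at 0.01, 17 with trend and robust eBayes, 9 with the replicate block and 0 to 4 without 1 array. Of the subunits 2 passed, 0 at 0.01, 4 after centring, 4 after quantile normalization, 12 with trend and robust eBayes, 4 with the replicate block and 0 to 1 without 1 array. The members that the replicate block added were rpn12, rpt3 and ubc16, and no member lost a call by it. The interaction passed for 1344 genes, 37 members and 23 subunits, at 0.01 for 591, 15 and 9, and without 1 array for 592 to 1429, 12 to 36 and 6 to 22. It could not be fitted without a replicate 1 array. By level, replicate 1 against replicates 2 and 3, 2056 genes passed, which is 71% of all genes. The level by replicate passed for 44 members and 24 subunits, at 0.01 for 29 and 15, and without 1 array for 1739 to 2362 genes, 34 to 51 members and 18 to 26 subunits. Under quantile normalization the ubi3 level turned to -0.07 and that of ubi1, not called before, to -0.23. Apart from ubi3, 59 of the alternatives for single called genes lost the call and the rest kept direction and call. Of the alternatives for single genes, 591 were counted as the same, but these include 309 values of named members without a block. None of those 309 was called, and each counted as the same where it moved by at most 1 standard deviation. Of them, 42 had the other sign. The counts of 25 and 17 subunits by sign, with alternatives chosen after seeing the data, were 25 and 22 after centring, and 25 and 20 after quantile normalization. Of all 2896 genes the same counts were 1609 and 1104 as deposited. They were 1605 and 1284 after centring, and 1505 and 1139 after quantile normalization. The causes were not tested. Of the members, ubc12 lay closest to background.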

Other observations

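The probe set shared by rpn501 and rpn502, which encode the lid subunit Rpn5, gave 13.16, 12.59 and 12.65 in YEPD replicates 1, 2 and 3 and 12.99, 12.65 and 12.68 in YEPME. Its arrays fell in the order seen for most subunits, with YEPD replicate 1 highest. The ubiquitin fusion gene uep1 gave 13.26, 13.22 and 13.16 in YEPD and 13.30, 13.12 and 13.07 in YEPME, with YEPME replicate 1 highest. Of 55 S. cerevisiae probe sets whose genes have symbols of the same kinds, 0 were above background on all 6 arrays and 2 on at least 1 array.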
